A study of Arabidopsis thaliana with 12 samples.

Results

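Among the Arabidopsis thaliana ATH1 array probe sets of this series, 110 gave a higher signal in every array from 14-day-old seedlings than in any array from 12-day-old seedlings, by a set margin. They were chosen by their measured values. A probe set was taken when its mean MAS5 signal over the 12 arrays was at least 120 and when the lowest of the 4 signals at 14 d, plus 50, was at least 1.5 times the highest of the 8 signals at 12 d, plus 50. Control probe sets were left out. Of 22746 probe sets considered, 13723 reached the signal minimum and were tested, and 110 (0.802% of those tested) met the rule. The same rule turned around, for probe sets lower in all 14-day arrays, found 24 (0.175%). The age difference of the 110 members is fixed by how they were chosen, so it is described below and no test of it is read as a result.

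The study set mutants of abscisic acid and ethylene action beside wild-type plants. All plants came from cold-treated seeds and were grown on agar with 1% sucrose. At 12 d the groups were the wild types Col-0 and Col-7, the mutant aba2 (an allele also called gin1-3), and etr1 (etr1-1 in the design text). At 14 d they were Col-0 and ein2 (ein2-1 in the design text). Each of the 6 groups had 2 arrays of total RNA, and no agent other than the sucrose was named. Col-0 was the only genotype present at both ages. The labels do not say whether the 2 replicates of a group came from separate cultures, so p-values measure only the spread between these samples. Age, harvest and any processing run shared by the 14-day arrays cannot be told apart in this design. The labels name no organ, and in bulk RNA fewer cells of a type and less RNA per cell cannot be told apart.

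ABA2 makes an enzyme of abscisic acid synthesis, ETR1 is an ethylene receptor and EIN2 passes the ethylene signal on from the receptors. The aba2 mutant is short of abscisic acid, and etr1-1 and ein2-1 do not respond to ethylene. In the weeks after germination an Arabidopsis seedling goes from living on seed reserves to feeding itself, its first true leaves expand, and it uses up or takes up sugars and minerals from the agar. Genes for transport, for specialised metabolites and for responses to stress are among those known to respond to such differences in growth.

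Array medians over all probe sets ranged from 207.89 to 213.81 at 14 d and from 187.88 to 198.43 at 12 d. They were thus higher in every 14-day array, along the same split that the rule used. The replicates of the wild types at 12 d were the furthest apart. Over all tested probe sets, the log2 difference of a group's replicates had an SD of 0.605 for Col-0, 0.469 for Col-7, 0.321 for aba2 and 0.248 for etr1 at 12 d, and 0.227 for Col-0 and 0.259 for ein2 at 14 d. The mutated genes were not among the genes paired with a probe set, so the genotypes could not be checked. Of 24 marker genes for green tissue, roots, flowers and seeds, 2 were paired with a probe set. RCA, the green-tissue marker (Rubisco activase), ranged from 20343 to 22588 at 14 d and from 21061 to 29107 at 12 d. The root marker EXPA7 (an expansin of root hairs) ranged from 66.533 to 137.97 at 14 d and from 37.48 to 116.41 at 12 d. Organ makeup was thus not assessed beyond these genes, and its part in the results was not tested.

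The margins of the members differed widely. The ratio of the lowest 14-day to the highest 12-day signal, each plus 50, had a median of 1.85 and a maximum of 5.74. It was 2 or more for 44 members, 3 or more for 16 and 4 or more for 5. The median ratio was 1.83 for the named members and 1.89 for the unnamed ones. The plain ratio of the median signals at the 2 ages, without the offset, had a median of 4.15 over the 110. At 12 d, 8 members had a median signal under 50 and 29 under 100, while 11 had one over 1000, so both dim and bright probe sets were included. Of the 13723 probe sets, 824 (6%) had all 4 arrays at 14 d above all 8 at 12 d, and 888 (6.47%) had all 4 below. Larger margins were therefore more frequent upward than downward, although complete separation was not.

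**Figure D1:**
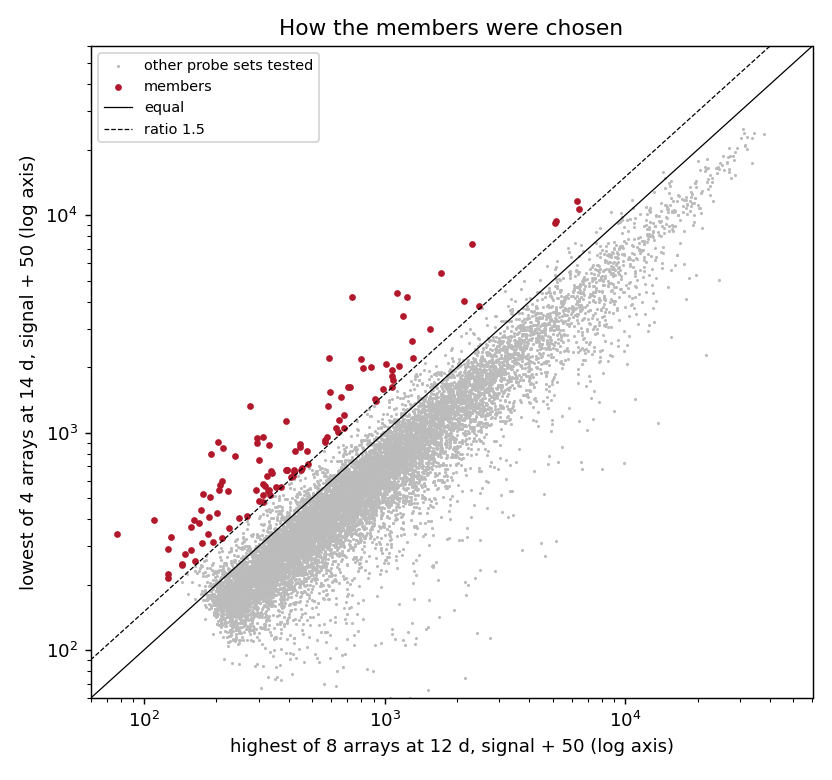
Each point is 1 of the 13723 tested probe sets, with the highest of the 8 signals at 12 d plus 50 on the x axis and the lowest of the 4 signals at 14 d plus 50 on the y axis, both logarithmic. The solid line marks equal values and the dashed line the ratio of 1.5. The 110 members (red) lie on or above the dashed line because the rule placed them there.

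Of the 110 members, 50 were paired with exactly 1 gene, 2 with several genes and 58 with none in the platform annotation used here. Of the 50, 8 had a symbol and 42 only a locus code. Of the 16 members with a ratio of 3 or more, 11 were unnamed. The 49 named members in the nuclear genome were spread over all chromosomes, with 15 on chromosome 1, 9 on chromosome 2, 11 on chromosome 3, 4 on chromosome 4 and 10 on chromosome 5. For genes known here only by locus code, the protein family given below is general knowledge of the Arabidopsis annotation and comes from no file of the series. Members with no family stated are given by code alone.

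**Figure D2:**
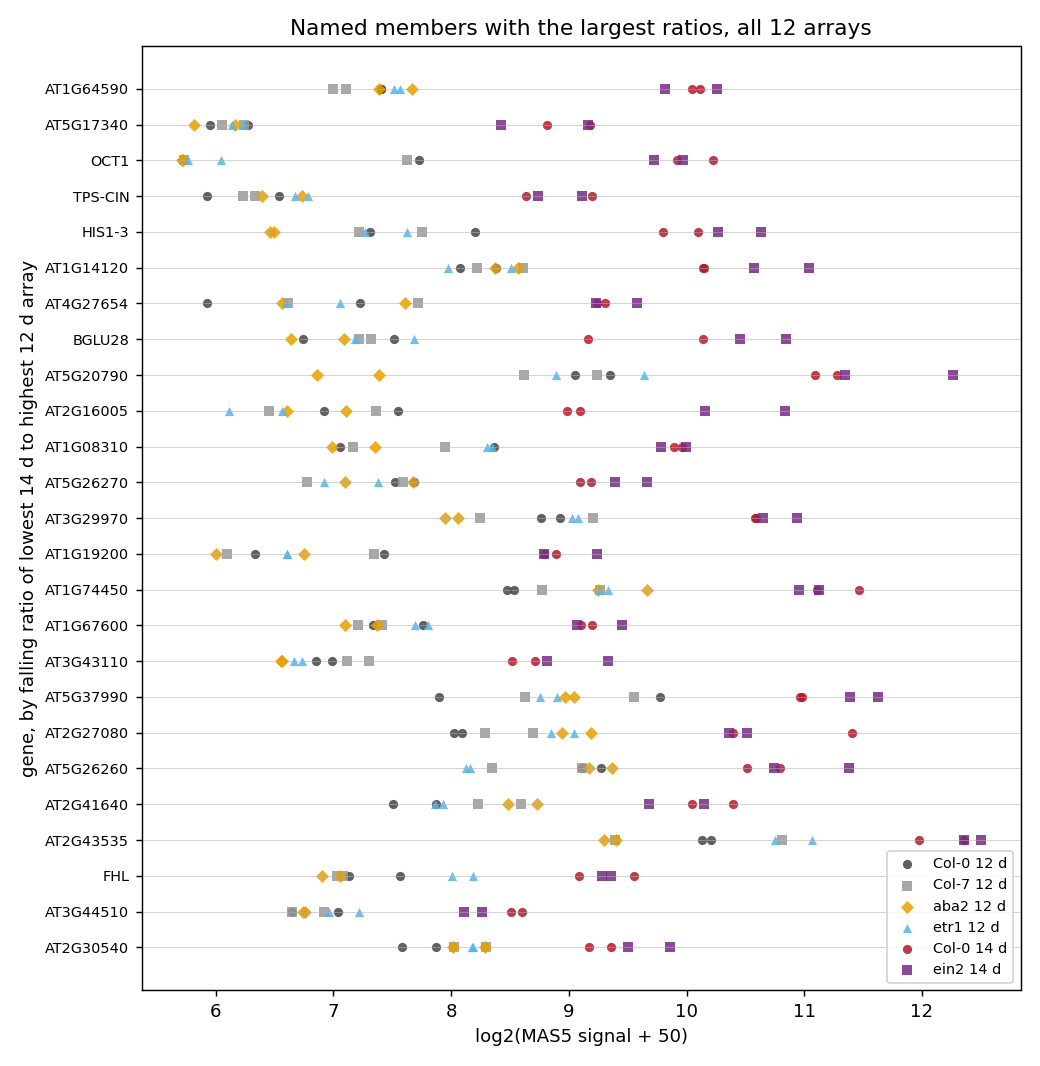
Signal of the 25 named members with the largest ratios in all 12 arrays, as log2(signal + 50) on the x axis, with 1 row per gene from the largest ratio down. Marker colour and shape give the group, with 2 arrays each. In every row the 4 points of the 14-day groups lie to the right of the 8 points of the 12-day groups, as the rule requires, while the spread among the 12-day points differs widely between genes.

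Among the transporters, OCT1, a membrane carrier of organic cations such as carnitine, had the largest ratio of the members with a gene symbol, 3.98. Its signal at 14 d was 918.3 and 1145.0 in Col-0 and 954.8 and 795.61 in ein2. At 12 d it was 162.47 in replicate 2 of Col-0 and 147.3 in replicate 2 of Col-7. The other 6 arrays at 12 d read between 2.4105 and 15.82. The 12-day wild types were thus split by replicate for OCT1, and both of their higher arrays still lay far below every 14-day array. SWEET16, a sugar carrier of the vacuole membrane, stood close to the limit of the rule with a ratio of 1.53. It read 688.93 and 645.01 in Col-0 and 575.21 and 580.32 in ein2 at 14 d, against 194.46 to 359.07 with a median of 286.26 at 12 d. The nitrate and peptide transporter family member AT1G72140 ranged from 263.37 to 367.58 at 14 d and from 60.909 to 144.29 at 12 d. AT1G61890, of the MATE efflux family, ranged from 1001.8 to 2084.3 and from 289.02 to 630.42. Its 4 values at 14 d were about as far apart from each other as its values at 12 d.

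Several members belonged to enzyme families. TPS-CIN, the terpene synthase that makes the monoterpene cineole in roots, had a ratio of 3.61. Its signal was 537.22 and 346.96 in Col-0 and 504.75 and 377.38 in ein2 at 14 d, and 10.757 to 59.945 with a median of 38.525 at 12 d. The probe set paired with TPS-CIN alone was therefore dim in all 8 arrays at 12 d and several times brighter in all 4 at 14 d. Replicate 1 was above replicate 2 in both 14-day groups. A near-identical copy of this synthase lies beside it in the genome. The probe set 256994_s_at, a member with a ratio of 2.88, is listed for both copies, so its signal belongs to no single copy. This shared probe set read 3387.0 to 3887.6 at 14 d and 301.99 to 1143.9 at 12 d, so it was not dim at 12 d. BGLU28, a beta-glucosidase that breaks down glucosinolates when sulfur is short, had a ratio of 2.79. It read 1077.0 and 524.76 in Col-0 and 1350.5 and 1794.8 in ein2 at 14 d, against 49.846 to 156.14 with a median of 96.93 at 12 d. Both ein2 arrays were above both Col-0 arrays for BGLU28, and the Col-0 replicates at 14 d themselves differed about as much as the genotypes did.

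Of the enzyme families known by locus code, AT1G64590, a short-chain dehydrogenase relative with a Rossmann fold, had the largest ratio of any member paired with a gene, 4.43. It read 1057.0 and 1005.4 in Col-0 and 1178.8 and 851.12 in ein2 at 14 d, and 77.857 to 153.63 at 12 d. Both Col-7 arrays, at 77.857 and 87.941, were the lowest. The oxoglutarate-dependent oxygenase AT1G14120 had a ratio of 2.89 and ranged from 1077.7 to 2062.5 at 14 d and from 200.72 to 340.12 at 12 d. AT5G37990, a methyltransferase of the family that makes methyl esters of plant hormones, ranged from 1944.3 to 3116.6 at 14 d. At 12 d AT5G37990 read 824.77 and 703.42 in replicate 1 of Col-0 and Col-7 but 187.94 and 346.21 in their replicate 2, so it was split by replicate in the opposite sense to OCT1. The alpha/beta hydrolases AT1G08310 and AT3G44510 had ratios of 2.66 and 1.86. AT1G08310 read 829.24 to 972.98 at 14 d and 77.258 to 280.41 at 12 d. AT2G41640, a glycosyltransferase, ranged from 768.79 to 1297.3 and from 131.53 to 374.38.

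Other enzyme members had smaller ratios. The pyruvate kinase relative AT3G49160 had a ratio of 1.73 and ranged from 773.11 to 939.42 at 14 d and from 198.78 to 425.28 at 12 d. AT5G37540, an aspartyl protease, had a ratio of 1.59 and ranged from 514.09 to 769.64 and from 139.92 to 304.64. Phosphate-releasing enzymes were represented by AT1G13750, a purple acid phosphatase with a ratio of 1.52. It read 584.1 to 859.46 at 14 d and 100.09 to 367.5 at 12 d, with replicate 1 of aba2 the lowest array. AT1G67600, related to acid phosphatases and haloperoxidases, had a ratio of 2.4 and read 487.63 to 650.04 and 86.932 to 174.03. For these enzymes too, the groups at the 2 ages did not overlap by the rule's own construction.

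HIS1-3, a linker histone variant that is induced by drought and abscisic acid, had a ratio of 3.02. Its signal at 14 d was 1043.3 and 841.96 in Col-0 and 1181.4 and 1534.6 in ein2. At 12 d it was 109.02 and 245.23 in Col-0, 165.02 and 99.198 in Col-7, 146.87 and 103.95 in etr1, and 40.392 and 37.914 in aba2. The aba2 arrays were the lowest of the 8 for HIS1-3. FHL, which carries the light receptor phytochrome A into the nucleus together with its homologue FHY1, had a ratio of 1.86. It read 700.17 and 493.65 in Col-0 and 573.82 and 606.65 in ein2 at 14 d. At 12 d FHL read 241.89 and 207.69 in etr1 and 69.814 to 139.34 in the other 6 arrays, so both etr1 arrays lay above all others of that age.

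JAL33, a jacalin-type lectin that binds sugars and belongs to a family linked to defence, was a bright member with a ratio of 1.81. Its signal was 9385.9 and 9332.2 in Col-0 and 12141 and 10526 in ein2 at 14 d. At 12 d it was 4478.2 and 3635.5 in Col-0, 3246.4 and 3650.1 in Col-7, 3882.1 and 5119.3 in aba2, and 2139.9 and 1469.7 in etr1. For JAL33 both etr1 arrays lay below every other array. The LEA-type membrane proteins AT2G27080 and AT1G17620, relatives of a defence regulator family, had ratios of 2.27 and 1.76. AT2G27080 read 2662.3 in replicate 1 of Col-0 at 14 d and 1268.8 to 1410.2 in the other 3 arrays of that age, against 210.94 to 532.18 at 12 d.

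Further members belonged to families of stress responses and signalling. The calcium-binding EF-hand protein AT3G01830 had a ratio of 1.7 and read 404.01 and 163.57 in Col-0 and 363.52 and 264.94 in ein2 at 14 d, against 21.486 to 75.635 at 12 d. AT3G52800, of the stress-associated zinc-finger family, had a ratio of 1.55 and ranged from 3769.1 to 5215.8 and from 1016.8 to 2421.0, with replicate 2 of aba2 highest at 12 d. AT2G30540, of the glutaredoxin family that acts on disulfides, had a ratio of 1.84 and ranged from 527.56 to 880.37 and from 141.56 to 263.67. AT2G43535, a small cysteine-rich protein of the knottin type found among plant defence peptides, had a ratio of 1.87 and ranged from 3968.3 to 5737.4 and from 579.46 to 2096.6. The highest 12-day value of AT2G43535 came from etr1. AT1G74450 and AT1G18740, similar to the plant protein BPS1, had ratios of 2.45 and 1.75. Both were brighter at 14 d in Col-0 replicate 1 than in either ein2 array. AT5G63130, a protein with a PB1 domain for binding partners, had a ratio of 1.66.

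Named members of lipid-binding families are described together here. How common such families are among all probe sets was not assessed. AT2G16005 and AT5G23840 share a lipid-recognition domain with secreted animal proteins and had ratios of 2.71 and 1.78. AT2G16005 read 498.1 and 457.93 in Col-0 but 1781.5 and 1091.0 in ein2 at 14 d, and 19.209 to 137.44 at 12 d. AT5G23840 read 174.18 and 194.43 in Col-0 and 547.27 and 258.32 in ein2 at 14 d, and 9.752 to 76.035 at 12 d. Both genes were higher in both ein2 arrays than in both Col-0 arrays, with replicate 1 of ein2 the highest. AT4G22610, of the lipid-transfer protein family, read 619.51 and 630.03 in Col-0 and 1726.1 and 807.25 in ein2, against 108.96 to 340.72 at 12 d. AT1G14960, of the latex-protein family with a lipid-holding pocket, had a ratio of 1.59. It ranged from 621.0 to 1502.0 at 14 d and from 70.617 to 370.92 at 12 d, where etr1 gave the highest values.

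Mitochondrial functions were represented by a pair of members with ratios below the members' median of 1.85. The mitochondria-encoded nad4L, a subunit of respiratory complex I, had a ratio of 1.58 and read 207.91 and 219.53 in Col-0 and 245.47 and 307.38 in ein2 at 14 d, against 60.293 to 113.09 at 12 d. AT2G07741, a copy on chromosome 2 of a mitochondrial ATP synthase subunit gene, had a ratio of 1.79 and ranged from 520.22 to 697.03 and from 124.17 to 268.27. Its probe set is of a type shared by similar transcripts, so the nuclear and mitochondrial copies cannot be told apart. Among 8 tested probe sets whose symbol was the main RefSeq symbol of a mitochondria-encoded gene and of no gene in another genome, 3 had all 14-day arrays above all 12-day arrays. These were nad4L and both probe sets of nad1, another complex I subunit, whose ratios of 1.43 and 1.09 fell short of the rule. Of all tested probe sets, 6% were separated in this way, and this group was picked for holding nad4L. Mitochondrial genes listed under older symbols were not counted. Among these, ccb452, a cytochrome c maturation gene, was also separated, with a lowest 14-day signal of 527.479 and a highest 12-day signal of 349.095. The genes ccb382 and orfX were not. Their lowest 14-day signals were 209.669 and 128.306, and their highest 12-day signals 951.26 and 142.65.

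Pairs of members lay close together in the genome. AT5G17340 and AT5G17350 are separated by 1 annotated gene on chromosome 5. AT5G17340 had a ratio of 4.42 and read 292.76 to 529.19 at 14 d and 6.2993 to 27.471 at 12 d. AT5G17350 read 606.26 to 1074.0 at 14 d, but at 12 d it read 301.8 in Col-7 replicate 1 and 369.62 and 250.71 in aba2, against 50.337 to 180.86 in the other 5 arrays. The neighbours thus differed in how they varied at 12 d. AT5G26260, of the TRAF-like family of protein-binding domains, and AT5G26270 are separated by 2 annotated genes. AT5G26260 read 229.27 and 235.4 in etr1 and 275.95 to 610.98 in the other 6 arrays at 12 d, while AT5G26270 ranged from 59.353 to 155.97.

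Of the members with no family stated, AT5G20790 had a ratio of 2.73. It read 2128.5 and 2435.3 in Col-0 and 4861.6 and 2553.3 in ein2 at 14 d. At 12 d it read 604.46 and 481.32 in Col-0, 343.56 and 554.96 in Col-7, 424.1 and 747.76 in etr1, and 117.33 and 66.422 in aba2. AT4G27654 (ratio 2.86), AT3G29970 (2.59), AT1G19200 (2.56) and AT3G43110 (2.33) also exceeded a ratio of 2. AT1G17830, AT3G03790 and AT2G42760 had ratios of 1.78, 1.77 and 1.65. AT4G13860, of the glycine-rich RNA-binding family, had a ratio of 1.54. The unnamed probe set 262369_at had the largest ratio of all, 5.74, with 4157.5 and 4817.2 in Col-0 and 5236.5 and 5175.1 in ein2 at 14 d. At 12 d it read 140.43 and 32.53 in aba2 and 278.26 to 682.74 in the other 6 arrays.

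At the limit of the rule, members and non-members had nearly the same values. AT1G23140 (a C2-domain protein), AT4G17790 (of the SNARE-associated Golgi protein family) and AT3G50350 lay just inside with ratios of 1.501, 1.508 and 1.515. AT3G04350, SAL2 and AT1G03020 lay just outside, each at 1.49. SAL2, for example, had a lowest 14-day signal of 220.53 and a highest 12-day signal of 131.22.

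**Figure D3:**
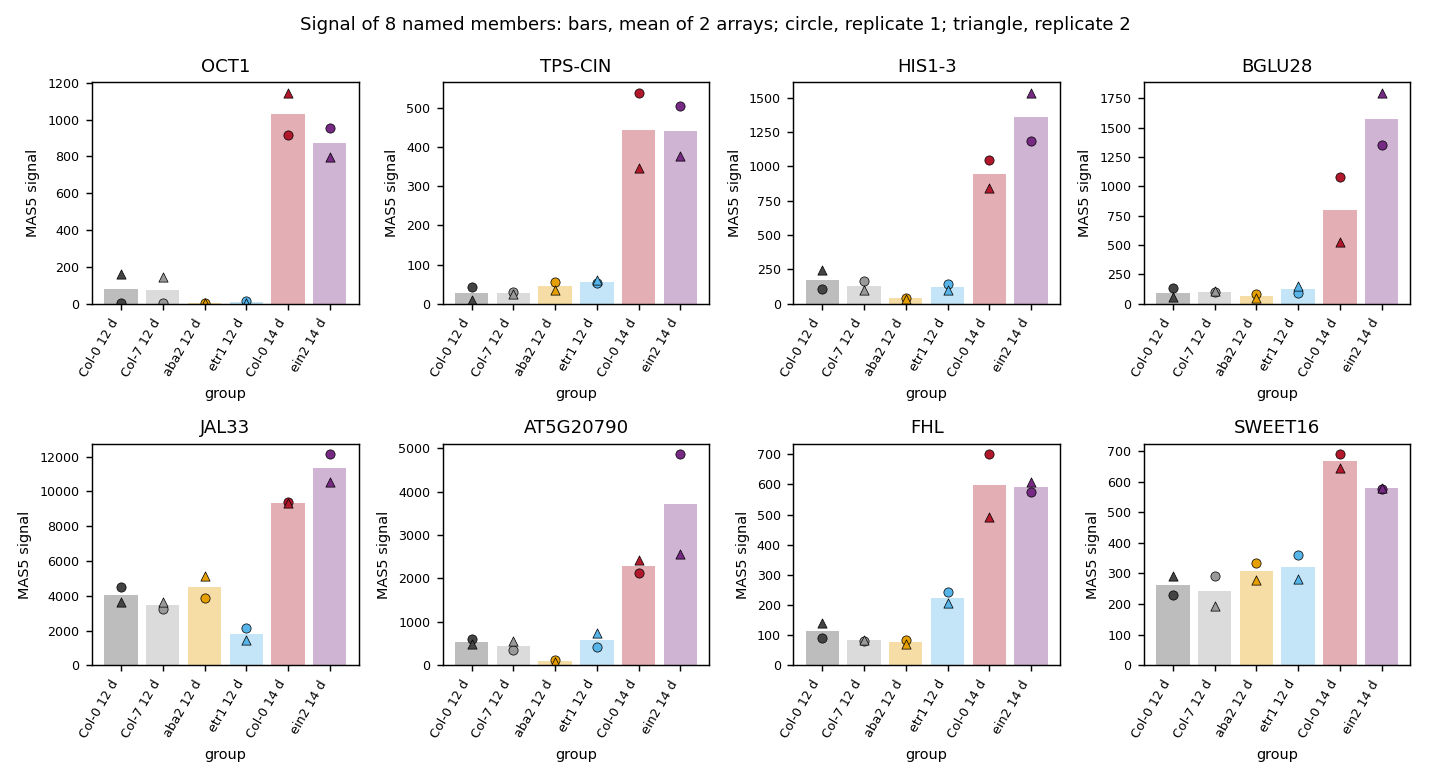
MAS5 signal (y axis, linear from 0, with its own scale in each panel) of OCT1, TPS-CIN, HIS1-3, BGLU28, JAL33, AT5G20790, FHL and SWEET16 in the 6 groups (x axis). Bars are means of 2 arrays, circles replicate 1 and triangles replicate 2. OCT1 shows 2 higher wild-type arrays at 12 d, HIS1-3 and AT5G20790 are lowest in aba2, and JAL33 is lowest in etr1.

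Across arrays, the members' median signal ranged from 784.92 to 963.89 in the 4 arrays at 14 d and from 175.16 to 236.28 in the 8 at 12 d. Replicate 2 of Col-0 was the lowest 14-day array for 43 members, Col-0 replicate 1 for 29, ein2 replicate 2 for 20 and ein2 replicate 1 for 18. The highest 14-day array was ein2 replicate 1 for 54 members. At 12 d no array supplied the highest value for more than 18 members, while aba2 replicate 2 gave the lowest value for 35. The limit of the rule was therefore set by different arrays for different members. The members' replicates were further apart than those of all tested probe sets in all 6 groups. The SD of their log2 difference was 0.653 for Col-0 and 0.715 for Col-7 at 12 d, 0.404 for aba2, 0.313 for etr1, 0.333 for Col-0 at 14 d and 0.358 for ein2. Between the highest and lowest array of an age, members differed by a median of 2.13-fold at 12 d and 1.42-fold at 14 d, against 1.623-fold and 1.254-fold for all tested probe sets. In both wild types at 12 d, 4 members differed more than 2-fold between replicates in the same sense. OCT1 and AT1G19200 were higher in replicate 2, and AT4G27654 and the unnamed 248676_at in replicate 1. Of all tested probe sets 1.91% did so.

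Col-0, measured at both ages, gave the age difference within 1 genotype. With limma's moderated test (Benjamini-Hochberg adjustment over 13723 probe sets), 889 probe sets (6.48%) differed between 14 d and 12 d at an adjusted p under 0.05, 628 of them (4.58%) higher at 14 d. All 110 members were among the latter. The rule set the direction and a least size of their differences, so this count is not read as a result. The members' differences in log2(signal + 50) ranged from 0.86 to 4.22 with a median of 1.75, beside a median of 0.001 over all probe sets. Because of the offset of 50, a dim gene's change is understated on this scale.

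Differences between genotypes of 1 age were tested over all probe sets, but the rule limits what they can show. It took the lowest of all 14-day arrays and the highest of all 12-day arrays, so a gene with low signal in ein2 at 14 d, or high signal in a mutant at 12 d, could not be a member. These comparisons therefore describe differences among the genes that the rule kept and do not test whether the age difference depended on a mutated gene. At 14 d, ein2 was compared with Col-0. No member differed at an adjusted p under 0.05 in limma, where 0.372% of all probe sets did. The count was 3 with an offset of 150 and 6 when only the 14-day arrays were fitted, all higher in ein2, with 0.408% and 2.7% of all probe sets called in those settings. At an unadjusted p under 0.05, 17 members (15.45%) differed, against 5.39% of all probe sets. The members' median difference was 0.15 on the log2 scale, beside -0.004 for all probe sets. Of the members 75 (68.2%) were higher in ein2, against 49.0% of all. Both ein2 arrays lay above both Col-0 arrays for 50 members and below for 11, while 21.1% of all tested probe sets lay above and 22.2% below. The largest differences were those of the unnamed 248676_at and of AT2G16005. They were 1.79 ± 0.594 (SE, limma adjusted p = 0.557) and 1.45 ± 0.349 (limma adjusted p = 0.215). Here and below, each SE rests on the spread pooled by limma over all 6 groups, and not on the groups compared alone. BGLU28 differed by 1.0 ± 0.347 (limma adjusted p = 0.609). None of these passed the threshold with 2 arrays a group.

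At 12 d, etr1 was compared with Col-0. JAL33 was the 1 member called (0.909% of members, against 0.459% of all probe sets in either direction and 0.255% lower). It was lower in etr1 by 1.16 ± 0.207 on the log2 scale (SE; limma adjusted p = 0.0479), and both etr1 arrays lay below both Col-0 arrays. This call stood near the threshold and was lost in 7 of 12 alternative settings, for instance without etr1 replicate 2 (a difference of -0.90; limma adjusted p = 0.357) and without etr1 replicate 1 (-1.43; limma adjusted p = 0.103). Without Col-0 replicate 1 the count was 3 (2.73% of members, against 3.04% of all probe sets) and without replicate 2 it was 2 (1.82%, against 0.758%), JAL33 among them each time. At an unadjusted p under 0.05, 20 members (18.18%) differed, against 9.74% of all. The members' median difference was 0.125, beside 0.013 for all probe sets, and 65 (59.1%) were positive, against 52.2%.  AT5G26260 differed by -1.05 (limma adjusted p = 0.164) and FHL by 0.75 (limma adjusted p = 0.185), neither past the threshold.

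The etr1 difference at 12 d was set against the ein2 difference at 14 d in 1 fit, which compares different genotypes and ages. No member differed between them in limma (0.0146% of all probe sets did). At an unadjusted p under 0.05 there were 15 members (13.64%), against 3.53% of all. JAL33, lower in etr1 at 12 d, differed by 0.27 ± 0.207 between ein2 and Col-0 at 14 d (limma adjusted p = 0.999), and the effects differed by -1.44 ± 0.293 (limma adjusted p = 0.686).

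The aba2 mutant was compared with both wild types at 12 d, since the labels do not say which one is its control. Against Col-7, 2 unnamed members were called, both lower in aba2 (1.82% of members, against 0.452% of all probe sets in either direction and 0.204% lower). The probe set 252414_at read 319.01 and 197.76 in aba2, 1085.0 and 1128.0 in Col-7 and 1189.7 and 693.0 in Col-0. It differed from Col-7 by -1.94 ± 0.263 (SE; limma adjusted p = 0.0185). The probe set 246075_at read 96.901 and 53.287 in aba2 and 203.31 and 202.48 in Col-7, a difference of -1.04 ± 0.171 (limma adjusted p = 0.0318). Neither call held when either aba2 array was left out, and no member was then called. Without Col-7 replicate 1 the count was 4 (0.408% of all probe sets were called), with 1 of the 2 among them, and without Col-7 replicate 2 it was 1 (0.423% of all), with neither. At an unadjusted p under 0.05, 34 members (30.91%) differed from Col-7, against 12.3% of all. The members' median was -0.086, beside -0.006 for all probe sets. Of the 110 differences 65 were negative, and 40.9% were positive, against 49.2% of all probe sets. The rule kept out genes with high signal in aba2, which limits how this lean can be read.

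Against Col-0, 7 members were called in aba2, 6 lower and 1 higher (6.36% of members, against 1.6% of all probe sets). Of all probe sets 0.255% were lower and 1.34% higher. Both comparisons use the same aba2 arrays, so they are not independent. The 2 members called against Col-7 were among the 7. AT5G20790 was lower by 2.08 ± 0.350 against Col-0 (SE; limma adjusted p = 0.0159), and its difference from Col-7 was -1.81 (limma adjusted p = 0.0575). The unnamed 262369_at, the member with the largest age ratio, differed by -2.29 from Col-0 (limma adjusted p = 0.0173) and by -2.06 from Col-7 (limma adjusted p = 0.0575). HIS1-3 differed by -1.28 from Col-0 (limma adjusted p = 0.0632) and by -1.01 from Col-7 (limma adjusted p = 0.193), and passed the threshold in neither. The 1 member higher in aba2 was the unnamed 258682_at, with 508.52 and 528.04 in aba2 against 148.8 and 242.89 in Col-0. The AT5G20790 call against Col-0 was lost in 3 of 12 alternative settings. These were the fit of only the arrays compared (limma adjusted p = 0.0882) and the fits without either aba2 array. Its difference was -2.34 without aba2 replicate 1 and -1.82 without replicate 2.

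Between the wild types Col-7 and Col-0 at 12 d, no member differed in limma, and 0% of all probe sets did. At an unadjusted p under 0.05, 9 members (8.182%) differed, against 4.79% of all. Without Col-0 replicate 1 the count was 3 members (2.73%), where 3.29% of all probe sets were called. With 2 arrays against 2, an exact permutation test of a single probe set cannot give a p below 0.333, so all p-values here rest on the spread pooled by limma over groups and probe sets.

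**Figure D4:**
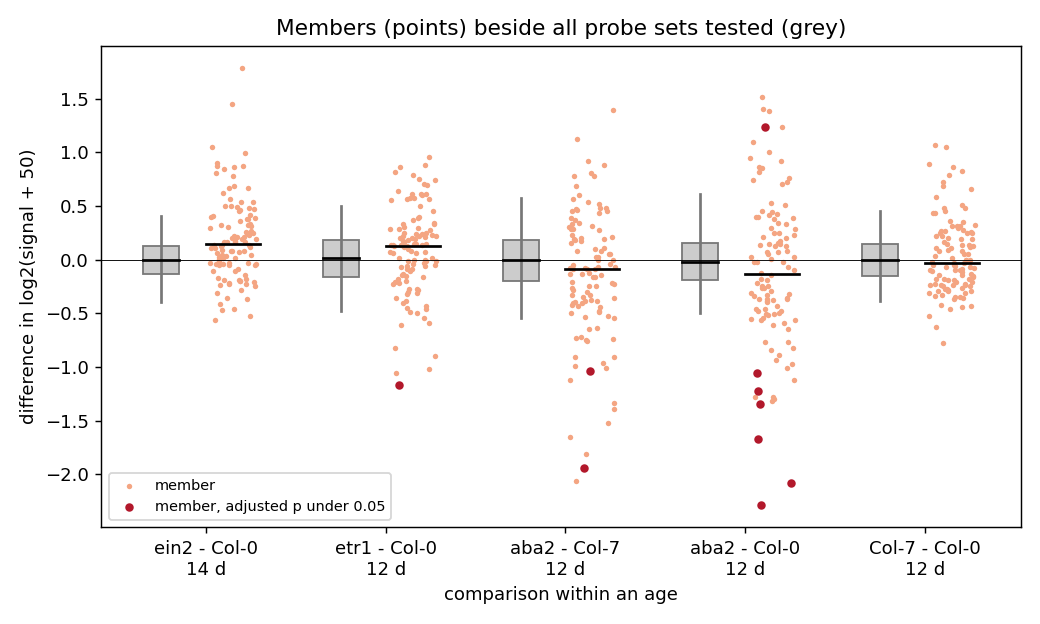
Differences in log2(signal + 50) between genotypes of the same age (y axis) for 5 comparisons (x axis). Grey boxes give the quartiles, black lines the medians and whiskers the 5th to 95th percentiles of all 13723 tested probe sets, and points are the 110 members, dark red where limma's adjusted p was under 0.05. The members' median is 0.15 for ein2, above that of all probe sets, and several members reach below -1 in aba2.

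The families of the named members did not follow them as a whole. These families were picked after the members were known, so each held a member from the start. Of all tested probe sets, 6% had all 14-day arrays above all 12-day arrays and 6.47% had all below. JAL33 was 1 of 4 tested jacalin lectins with a JAL symbol. JAL34 and JAL22 also had all 14-day arrays above all 12-day arrays, with ratios of 1.12 and 1.18. JAL23 did not, with 127.89 to 1066.3 at 14 d and 109.41 to 877.21 at 12 d. Of 9 tested beta-glucosidases with a BGLU symbol, BGLU28 and BGLU15 had all 14-day arrays higher, BGLU15 with a ratio of 1.09. BGLU42 had all of them lower, with 221.96 to 260.96 at 14 d and 275.95 to 480.04 at 12 d. SWEET16 was the only one of 7 tested SWEET sugar carriers with complete separation. The next ratio in that family was 0.801, that of SWEET2. Among the OCT carriers, OCT4 was also separated (ratio 1.15), with 243.35 to 311.8 at 14 d and 80.201 to 205.8 at 12 d, while OCT5 overlapped between the ages.

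Lists of known pathway genes could be followed only in small part, since 39 of 308 listed genes in 16 lists were paired with a probe set. BGLU28, in the list of sulfur starvation and assimilation, was the only member on any list and the only gene of that list of 13 that was paired. None of the listed phosphate starvation or nitrate response genes was paired, so these pathways were not assessed. Of the 26 other listed genes that were tested, 3 were higher and 6 lower at 14 d than at 12 d in Col-0 (limma adjusted p under 0.05). Of all probe sets, 6.48% differed in either direction, 4.58% being higher and the rest lower. The lists were chosen with earlier results of these data known, so these counts cannot be weighed against those shares. WRKY53, a regulator of leaf senescence, rose by 2.39 ± 0.211 on the log2 scale (SE; limma adjusted p = 0.000542) but ranged from 359.72 to 688.86 at 14 d and from 79.35 to 849.05 at 12 d, so other genotypes overlapped. OPCL1, an enzyme of jasmonate synthesis, and GRX480, a glutaredoxin induced by salicylate, were higher by 1.62 and 1.05. The clock gene GI, the defensin PDF1.2, the cold-induced COR15A and COR15B, the anthocyanin enzyme DFR and the antenna protein gene LHCB4.1 were lower, by differences of -0.95, -3.27, -2.50, -1.19, -1.51 and -0.51.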

How the data were processed

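Per the labels, total RNA was extracted with a Qiagen RNeasy plant kit and hybridised to single-colour ATH1 GeneChips. Per the design text and the submitters' processing notes, the authors used Affymetrix Microarray Suite 5.0 (MAS5), and the deposited values are its linear signal intensity, 1 per probe set and array. The deposited table held 22810 rows, of which 64 were controls, and all 12 columns of values were used (0 were left unmapped). Detection calls were not used here, and the number of arrays limits the precision. MAS5 takes signal against mismatch probes, so low values are unreliable.

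Intensities were scaled to a common mean trimmed by 2% at each end, and log2(signal + 50) was analysed. The fit kept probe sets with a mean signal of at least 120, so every member was tested. The 6 group means were fitted to all 12 arrays with limma 3.58.1 in R 4.3.3 (eBayes with trend, 6 residual degrees of freedom, two-sided, Benjamini-Hochberg over 13723 probe sets, threshold 0.05). Tables were made with Python 3.11.15 and pandas 2.3.3. Tested on simulated data for ein2 against Col-0 (5 runs, 200 changed of 13723), the fit recovered 61.4% of 2-fold and 99.2% of 4-fold changes, with 0 of the wrong sign and a median of 7 false calls. The simulated arrays were independent, with the same spread in all groups for a probe set. In the real data the replicate spread differed between groups and some arrays deviated together, so these rates need not hold there.

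The platform annotation gave 1 gene for 13513 probe sets, several for 503 and none for 8730. RefSeq's table for TAIR10.1 listed 13436 of the 13513. That table held no product descriptions, so a sorting of members into function classes by keyword placed 2 of the 50 named members and left 48 with no class. The account by role does not use these classes. No promoter or protein sequences were used here. Named genes were members paired with 1 gene: the 25 with the largest ratios, those on a gene list, those called in a tested comparison, up to 4 per function class, and the 3 nearest on each side of the ratio of 1.5. The other named members, unnamed probe sets with large differences and family relatives were chosen after their values were seen. The members and gene lists were chosen with earlier results of these data known. Alternatives tried were offsets of 10 and 150, quantile normalization, other filters, eBayes without trend, the replicate number as a block, only the arrays of a comparison, each array left out, Col-0 as the control of aba2, and other limits of the rule.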

Additional observations from a re-analysis of the deposited data

How the results depend on the processing

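The member count was 110 by the rule, 234 with a smaller ratio in the rule and 44 with a ratio of 2. It ranged from 115 to 133 when 1 array was left out, which by construction makes the rule looser. With quantile normalization it was 102, and 100 of these were among the 110. For ein2 against Col-0 the count of members called was 0, 3 with an offset of 150 and 6 with only the arrays of that comparison, all higher in ein2, and 0 without each array. For etr1 against Col-0 it was 1, and 0 with quantile normalization, with no filter, with eBayes without trend and with only the arrays of that comparison, and 0 to 3 without each array. For aba2 against Col-7 it was 2, 1 with an offset of 150, 1 with no filter, 0 with only the arrays of that comparison, 7 with Col-0 as control, and 0 to 4 without each array. For Col-7 against Col-0 it was 0, and 0 to 3 without each array. For the etr1 effect minus the ein2 effect it was 0 under every alternative run. Signed differences were followed for JAL33 in etr1, AT5G20790 in aba2 against both wild types, and 252414_at and 246075_at in aba2 against Col-7, and all stayed negative under the alternatives run. The share of all probe sets called also moved. For ein2 it was 0.372%, 0.408% with an offset of 150 and 2.7% with only the arrays compared. For etr1 it was 0.459%, 0.423% with quantile normalization, 0.207% with no filter, 0.401% without trend and 0% with only the arrays compared. For aba2 against Col-7 it was 0.452%, 0.445% with an offset of 150, 0.268% with no filter and 0.051% with only the arrays compared. With Col-0 as control it was 1.6%. It moved too without single arrays. The causes were not tested.

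Same-numbered replicates were checked for pairing: the correlation of their deviations was 0.541 for Col-0 with Col-7, 0.486 for aba2 with Col-0 and 0.34 for aba2 with Col-7 at 12 d, and ranged from -0.264 to 0.112 over the other pairs of groups. Same-numbered arrays of these 3 groups at 12 d thus deviated together, which the labels do not explain, and the numbers were not taken as pairing over the whole design. With the replicate number as a block, the etr1 count went from 1 to 0 (JAL33, limma adjusted p = 0.0517), and no other count of members called moved by over 1.5 times. Dim probe sets limit what can be said: 8 members had a median signal under 50 at 12 d, and their ratios depend on the offset.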
